A study of Mus musculus with 10 samples.

Results

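A set of 169 mostly non-coding genes with their highest level in HE1, the earlier hemogenic endothelium, was examined in nuclear RNA-seq of mouse blood cell differentiation. The members were taken from the 39801 of 55487 annotated genes that are absent from the expression matrix of 15686 genes deposited beside the count tables, of which 99.8% are protein coding. The members were selected on their HE1 values: a member had a CPM of at least 1 in both HE1 libraries and an HE1 mean at least 3 times the mean of every other stage. CPM is the count of a gene per 1000000 counts of its library and takes no account of gene length. Among the genes outside the matrix, 2620 reached the HE1 floor and 6.45% of these were members. Because of this choice, every difference of a member between HE1 and another stage is given as a description, with no test. The same rule with another stage in place of HE1 found 349 genes for ES, 32 for HB, 1 for HE2 and 5 for HP, and it found 141 genes when applied to HE1 and the genes of the matrix.

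All cells came from HM-1, a mouse embryonic stem (ES) cell line used for gene targeting, so every stage derives from the same line. ES cells were grown with serum and LIF and were not differentiated. HB cells were FLK1+ cells of the hemangioblast stage, isolated on magnetic beads from embryoid bodies after 3 d in serum. Blast culture of these FLK1+ cells for 2.5 d gave the hemogenic endothelium of the first stage (HE1, KIT+ TIE2+ CD41-), that of the second stage (HE2, KIT+ TIE2+ CD41+) and hematopoietic progenitors (HP, KIT+ TIE2- CD41+). Each of the 5 stages had 2 libraries. The study describes the libraries of a stage as biologically independent, without saying what was repeated, and p-values measure the spread between these libraries only. Total counts lay between 24920434 and 58782055 per library, and a floor of 3 counts was worth 0.051 to 0.12 CPM, which covers counting error only.

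HE1 carried endothelial markers, the genes of the sort antigens followed the sort only in part, and HE1 replicate 2 stood apart from HE1 replicate 1. The summed CPM of 32 endothelial markers was 9192 and 7489 in HE1 replicates 1 and 2 and 6091 and 3271 in HE2. In HB it was 2858 and 3035, and 31 of the 32 reached 1 CPM in HE1. Itga2b, which encodes the CD41 used to separate HE1 from HE2, was at 217 and 144 CPM in HE1 and at 500.5 and 449 CPM in HE2, and the CD41- HE1 libraries were above HB at 50.0 and 33.9. Kit was at 140 and 82.5 CPM in HE1, between HB (76.3 and 68.2) and ES (157 and 165), and at 228 and 393 in HE2. Tek, which encodes TIE2, was at 538 and 333 CPM in HE1 and at 59.8 and 68.2 in the TIE2- HP cells, close to its 59.6 and 59.9 in HB. In HE1 replicate 2 the sum was higher than in replicate 1 for 13 smooth muscle and mesenchyme markers (1971 against 858 CPM), 9 cardiac markers (130 against 35.6), 7 pluripotency markers (130 against 45.2) and 6 neural markers (101 against 37.5). It was lower for 15 hematopoietic markers (426 against 714 CPM), and the 5 endoderm markers summed to 2.85 and 2.05 CPM with Ttr at 0. Col1a1 (168 and 758 CPM), Tnnt2 (15.2 and 84.0) and Tubb3 (27.9 and 83.2) made up most of the differences in the mesenchyme, cardiac and neural sums. Klf4 made up most of the pluripotency sum in HE1 replicate 1 and was lower in replicate 2 (38.0 and 30.3 CPM). The other pluripotency markers were all higher in replicate 2, among them Pou5f1 (2.69 and 29.7 CPM), Dppa5a (1.16 and 24.5) and Nanog (0.682 and 13.1). The part of these markers in the results was not tested, and fewer cells of a type cannot be told apart from less RNA per cell in bulk libraries.

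Nuclear RNA holds transcripts that are still being made, so introns are sampled beside exons. A long non-coding RNA may act in the nucleus without ever being translated, and a miRNA is cut in the nucleus from a longer primary transcript before its mature form represses target mRNAs in the cytoplasm. Hemogenic endothelium is a transient endothelium from which blood cells bud, and the factors that build vessels, such as FLI1 and SOX17, are active in it before the blood program takes over.

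The miRNA members are shown first because the mature sequences of most of them are known. There were 10 of them, and the 7 for which mature sequences are printed have hairpins whose RefSeq positions (GRCm38.p6) are identical to those of the count tables. The capitals mark the seed, bases 2 to 8 from the 5′ end, by which a miRNA pairs with its targets. The counts are of fragments of nuclear RNA over the hairpins and not of the mature forms printed here. Only the 3′ form of Mir126a and the 5′ form of Mir23b are printed, since the reference used held no other form for them.
mmu-miR-126a-3p: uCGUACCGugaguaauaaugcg
mmu-miR-675-5p: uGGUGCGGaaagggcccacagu
mmu-miR-675-3p: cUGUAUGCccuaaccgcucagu
mmu-miR-335-5p: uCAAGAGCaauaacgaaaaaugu
mmu-miR-335-3p: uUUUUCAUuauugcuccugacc
mmu-miR-23b-5p: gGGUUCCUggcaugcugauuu
mmu-miR-27b-5p: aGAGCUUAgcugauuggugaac
mmu-miR-27b-3p: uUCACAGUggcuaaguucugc
mmu-miR-24-1-5p: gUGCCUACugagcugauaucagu
mmu-miR-24-2-5p: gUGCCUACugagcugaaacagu
mmu-miR-24-3p: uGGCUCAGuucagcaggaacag
Mir24-1 and Mir24-2 lie on different chromosomes, at chr13:63301208-63301275 and chr8:84208815-84208921, both on the plus strand. They give the same 3′ mature form and share the seed of their 5′ forms. Both hairpins were members.

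The members were largely intronic transcripts of no known function. TEC genes, an annotation class for transcripts that still await experimental evidence, made up 98 of the 169 members, or 58.0%, against 26.6% of the 2620 genes at the HE1 floor. The rest held 18 processed pseudogenes, 11 lincRNAs, 10 miRNAs, 10 sense intronic and 7 antisense transcripts, 6 processed transcripts and 1 protein-coding gene, Gm10840. Relative to the genes of the matrix, 115 members (68.0%) lay in an intron of such a gene on the same strand, against 34.5% of the genes at the floor. Another 10 lay inside a gene on its strand with shared exon bases, 14 overlapped a gene on the opposite strand and 30 overlapped none. A single block of exon sequence made up 137 members. The members' exon length had a median of 2069 bases.

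The 169 members fell on 136 partner genes, the partner being the gene that holds the member or, failing that, the nearest gene of the matrix. The partners with several members numbered 20 and held 53 members. Maml3, a coactivator of Notch signaling, held 6 members, and Apbb2, an adaptor that binds the amyloid precursor protein, held 5. Aopep, an aminopeptidase gene, held 4, of which 3 are miRNAs. Slit2, a guidance ligand of the Robo receptors, held 3, as did Camk2d, a calcium-dependent kinase, and Grip1, a scaffold of PDZ domains, and Zswim4 was the nearest gene for 3 that it does not overlap. Members inside the same gene can share its transcript, so counts of members are counts of annotated genes and not of independent transcripts. The median GC content of the 98 TEC members was 44.0%, and that of the 600 TEC genes at the floor that were not members was 41.2%, while the median lengths were 2444 and 2490 bases.

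The library HE1 replicate 2 set much of the height of the members. Without Mir675, the member with the most counts, the members summed to 528 CPM in HE1 replicate 1 and 1618 CPM in HE1 replicate 2. The other libraries held 276 and 133 CPM for HE2, 117 and 274 for HP, 214 and 117 for HB and 95.2 and 90.7 for ES. HE1 replicate 1 was thus higher than the 8 libraries of other stages, and HE1 replicate 2 was higher again. The share of all counts that fell on TEC genes was 0.316% (95% Wilson interval 0.314 to 0.318) in HE1 replicate 1 and 0.627% (0.624 to 0.630) in HE1 replicate 2, where the intervals cover counting error only, and it ranged from 0.179% to 0.389% in the other libraries.

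**Figure D1:**
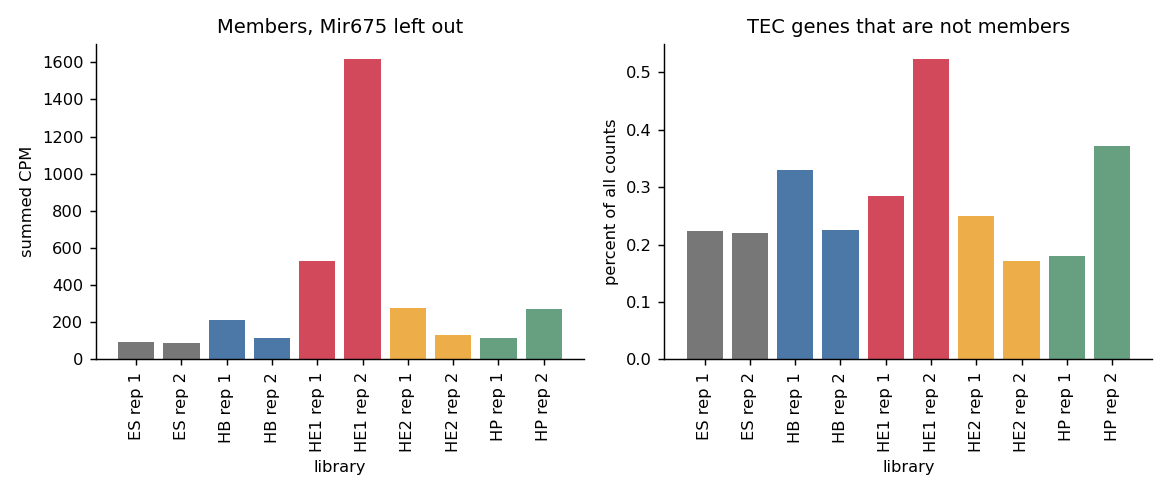
Left, summed CPM of the members without Mir675 in each of the 10 libraries; right, percent of all counts on TEC genes that are not members. Bars are single libraries coloured by stage; HE1 replicate 2 is the highest in both panels, at 1618 CPM and 0.523%.

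Between the HE1 libraries, 162 of the 169 members were higher in replicate 2, with a median ratio of 2.67 (quartiles 2.00 and 3.75). For the 600 other TEC genes at the floor the median ratio was 1.83, for the 12413 genes of the matrix at the floor it was 1.06, and for 133 partner genes at the floor it was 1.04. All 115 intronic members had a higher ratio than the gene around them, with medians of 2.98 for the members and 1.04 for their 91 hosts, and the 790 intronic genes at the floor that were not members had a median of 1.71. The members that were not intronic, 54 in number, had a median of 2.06. The replicates of other stages also differed over the members. The median ratio of replicate 2 to replicate 1 was 2.84 in HP, 0.928 in ES, 0.534 in HB and 0.427 in HE2.

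**Figure D2:**
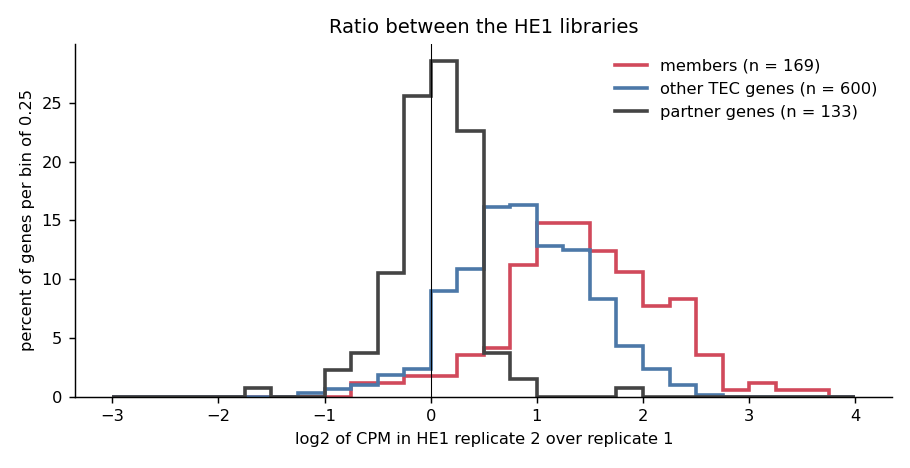
Distribution of the log2 ratio of CPM in HE1 replicate 2 over HE1 replicate 1 for the members, for other TEC genes at the floor and for partner genes at the floor, as percent of genes per bin. The partner genes centre near 0 (median ratio 1.04), other TEC genes lie to the right (1.83) and the members farther to the right (2.67).

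When HE1 was represented by replicate 1 alone, 50 of the 169 members still met the rule, among 63 genes in all. Replicate 2 alone gave 679 genes, which held all 169 members. The 50 members held 21 TEC genes (42.0%) and 23 intronic members (46.0%), and their median ratio between the HE1 libraries was 1.98. Of the members named here, Mir126a, Mir335, Mir23b, Mir24-1, 5033428I22Rik, Gm44716, Gm7498, Gm16252, Gm37633, Gm7357, Gm37587, Gm23833, Gm16574, AC109261.4, D330037F02Rik, Six3os1, Serpina3h and Gm43426 belong to the 50, and the others do not.

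The level of intronic members relative to the gene around them varied between libraries in the same order as that of other intronic genes. In HE1 replicate 2 the median member stood at 5.07% of the CPM of its host, against 1.69% in HE1 replicate 1, 1.81% and 0.865% in HB, 1.39% and 0.845% in HE2, 0.903% and 2.25% in HP and 1.11% and 1.08% in ES. For the 790 other intronic genes the values were 5.18% in HE1 replicate 2 and 2.68% in HE1 replicate 1, with 1.44% to 3.36% elsewhere. HE1 replicate 2 was the highest and HP replicate 2 the second in both groups. These are ratios of CPM without correction for length.

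By stage, the median member had a mean CPM of 4.09 in HE1, against 0.741 in HE2, 0.661 in HP, 0.556 in HB and 0.279 in ES. HE1 means ranged from 1.08 to 454 CPM, 23 members reached 10 CPM, and the median ratio of HE1 to the next highest stage was 4.15. That next stage was HE2 for 65 members, HB for 45, HP for 45 and ES for 14. Both HE1 libraries were above the 8 others for 151 members, where 14.2% of all genes at the floor had that pattern; since the rule asks for it in part, nothing follows from this count. Just inside the threshold were Gm46436, Gm11799 and Gm48890 at ratios of 3.01 each, and just outside were Gm45280, C430049B03Rik and Gm49526 at 2.98 each.

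**Figure D3:**
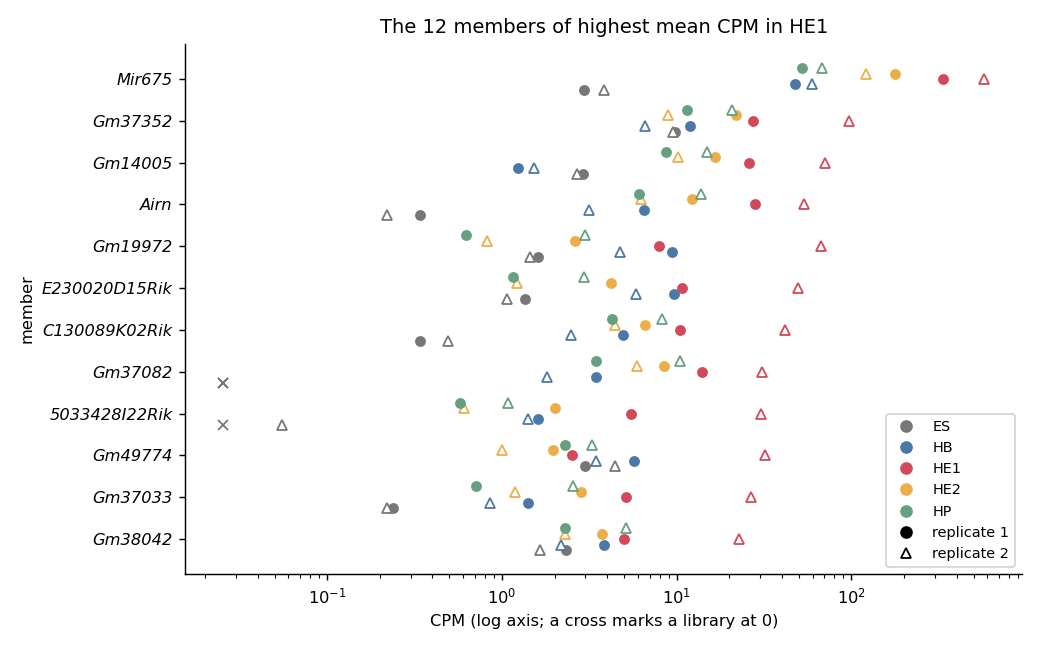
CPM on a log axis of the 12 members of highest mean CPM in HE1, with 1 symbol per library, coloured by stage and shaped by replicate; a cross marks a library at 0. HE1 replicate 2 is the rightmost symbol for each of the 12; for Gm19972, Gm49774 and Gm38042, HE1 replicate 1 lies among the other stages.

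Mir675 had the most counts of all members. Its hairpin at chr7:142577064-142577147 (minus strand) lies in the exon sequence of H19, an imprinted maternally expressed lincRNA that serves as its primary transcript. It was at 332 and 577 CPM in HE1, with 177 and 122 in HE2, 52.3 and 68.0 in HP, 47.3 and 59.3 in HB and 2.94 and 3.84 in ES. The order of stages was HE1, HE2, then HP and HB, whose libraries overlapped, then ES. H19 itself, which is outside the matrix too, was at 2670 and 4566 CPM in HE1 and at 1452 and 1030 in HE2, a ratio under 3, and was no member. A fragment that covered several genes was counted on each, so the counts of Mir675 are also counts of H19. Mir675 met the rule at 3.04 times HE2 with both libraries and not with HE1 replicate 1 alone.

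Mir335, in an intron of the imprinted, paternally expressed gene Mest, was the miRNA member without a higher value in HE1 replicate 2. It stood at 7.62 and 6.68 CPM in HE1, against 0.408 and 0.412 in ES, 2.79 and 1.55 in HB, 1.96 and 0.790 in HE2 and 0.710 and 0.845 in HP. Mest was at 3928 and 2815 CPM in HE1 and at 857 and 927 in HB. Both were highest in HE1, in each of its libraries.

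Mir126a is the endothelial miRNA carried by Egfl7. Its values were 3.49 and 12.9 CPM in HE1, 0.051 and 0.247 in ES, 1.10 and 0.555 in HB, 1.45 and 0.425 in HE2 and 0.244 and 0.710 in HP. All 73 bases of the hairpin are annotated exon sequence of Egfl7, a secreted factor of endothelial cells, which was at 430 and 711 CPM in HE1 and at 277 and 114 in HE2. Since a fragment over the hairpin was counted on both genes, their levels are not separate measurements. The rule held with HE1 replicate 1 alone, where Mir126a was 3.7 times lower than in replicate 2.

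The clusters of miR-23, miR-27 and miR-24 on chromosomes 8 and 13 both entered the set. In the cluster inside Aopep, Mir23b was at 1.52 and 3.59 CPM in HE1, Mir27b at 1.16 and 3.02 and Mir24-1 at 1.61 and 2.28, while their means in the other stages stayed at or under 0.468 CPM. Mir27b and Mir24-1 share 73 and 68 bases with annotated exons of Aopep, so their fragments were also counted on Aopep. In the cluster beside Zswim4 the hairpin member was Mir24-2, at 1.00 and 2.76 CPM in HE1 and at most 0.695 in the other 8 libraries. Mir23a and Mir27a of that cluster stood at 0.642 and 3.77 and at 0.441 and 3.10 CPM in HE1, and they were no members since HE1 replicate 1 missed the floor. Mir27b, Mir24-1 and Mir24-2 were chosen for naming after their values were seen, and Mir27b and Mir24-2 do not meet the rule with HE1 replicate 1 alone.

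Upstream of and next to the hairpins on chromosome 8 lie Gm37352 and the lincRNA Gm26532, on the same strand. Gm37352 was at 27.4 and 96.3 CPM in HE1, 9.80 and 9.55 in ES, 11.9 and 6.60 in HB, 21.8 and 8.96 in HE2 and 11.5 and 20.8 in HP. HE1 replicate 1 was therefore close to HE2 replicate 1. Gm26532 was at 3.33 and 14.2 CPM in HE1 and between 0.654 and 2.69 elsewhere. It starts at position 84208920, before Mir24-2 ends at 84208921, so they can share fragments. Zswim4, the partner by position on the other strand, was at 80.5 and 91.3 CPM in HE1 and 87.6 and 89.3 in HB.

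Airn, the antisense transcript that silences Igf2r on the paternal chromosome, was the leading antisense member. It was at 27.9 and 53.4 CPM in HE1, 0.340 and 0.220 in ES, 6.47 and 3.13 in HB, 12.3 and 6.29 in HE2 and 6.12 and 13.8 in HP. The HE1 libraries did not overlap with the others, and HE2, HP and HB overlapped among themselves. Igf2r, which encodes the receptor that clears IGF2, was at 790 and 695 CPM in HE1, 285 and 308 in HB and 373 and 255 in HE2, so antisense and sense were both highest in HE1. They differed in ES, the next highest stage of Igf2r at 422 and 443 CPM and the lowest of Airn. Counting used strand, which keeps the reads of Airn and Igf2r apart. Gm23833 (6.98 and 16.0 CPM in HE1) and Gm16574 (3.97 and 7.21) lie within Airn on its strand and can share its transcript. Both meet the rule with HE1 replicate 1 alone and Airn does not.

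For 7 members the partner was among the 32 listed endothelial genes, namely Efnb2, Fli1, Sox17 or Egfl7, and 6 of the 7 overlapped it on either strand. Efnb2, the arterial ephrin ligand, held E230020D15Rik at 10.8 and 49.8 CPM in HE1, 9.71 and 5.88 in HB, 1.36 and 1.07 in ES, 4.23 and 1.22 in HE2 and 1.15 and 2.94 in HP. HE1 replicate 1 was near HB replicate 1. Efnb2 itself was at 239 and 252 CPM in HE1 and 208 and 236 in HB, and Gm45074, its other member, was at 2.65 and 15.2 CPM in HE1 against 2.75 and 1.53 in HB.

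In Fli1, which encodes an ETS factor of endothelium and early blood, Gm37082 was at 14.0 and 30.7 CPM in HE1, with 8.49 and 5.95 in HE2, 3.46 and 10.4 in HP, 3.44 and 1.80 in HB and 0 in both ES libraries. The small nuclear RNA gene Gm22060, also intronic in Fli1, was at 1.61 and 2.76 CPM in HE1 and also at 0 in ES. Fli1 was at 225 and 151 CPM in HE1, 189 and 183 in HE2, 68.0 and 68.2 in HB and 0.221 and 0.220 in ES. Host and members thus shared the low level in ES, and neither member met the rule with HE1 replicate 1 alone.

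At Sox17, an arterial transcription factor of the hemogenic endothelium, the members were Gm37587 on the opposite strand and the pseudogene Gm7357, 25551 bases away. Gm37587 was at 1.00 and 2.46 CPM in HE1 and at most 0.362 in the other libraries, with 0 in both ES libraries and in HP replicate 1. Gm7357 was at 2.41 and 4.67 CPM in HE1 and at most 0.785 elsewhere. Sox17 was at 91.9 and 87.4 CPM in HE1, 15.2 and 12.2 in HB and 30.7 and 8.02 in HE2. Both members met the rule with HE1 replicate 1 alone.

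**Figure D4:**
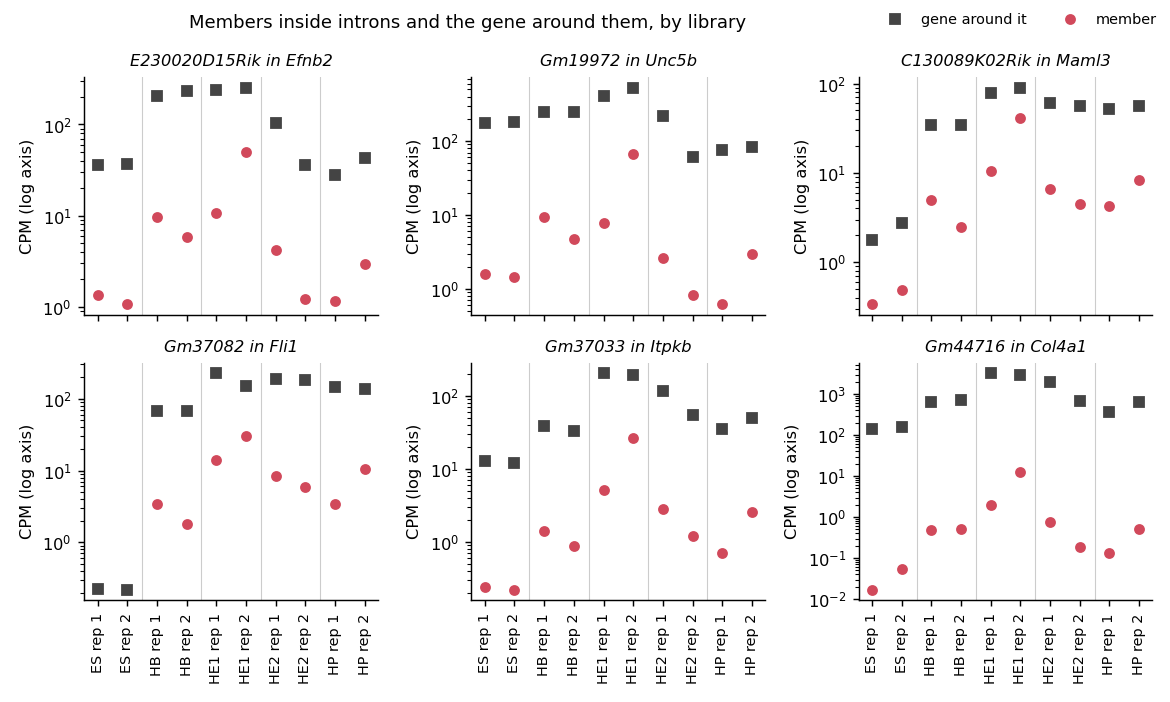
CPM on a log axis in each of the 10 libraries for 6 members inside introns (circles) and the gene around each (squares); libraries at 0 are not drawn. The members rise in HE1 replicate 2 over HE1 replicate 1, for example from 10.8 to 49.8 CPM for E230020D15Rik, while Efnb2 moves from 239 to 252 CPM.

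Other leading members lay in introns of Unc5b, Maml3 and Itpkb. Gm19972, in the netrin receptor gene Unc5b, was at 7.91 and 66.8 CPM in HE1 and at 9.40 and 4.74 in HB, so its peak rests on HE1 replicate 2; Unc5b was at 414 and 524 CPM in HE1 and 246 and 250 in HB. C130089K02Rik, the leading member of the 6 in Maml3, was at 10.5 and 41.5 CPM in HE1, 4.92 and 2.47 in HB and 6.58 and 4.44 in HE2. In Itpkb, an inositol trisphosphate kinase gene, Gm37033 was at 5.10 and 26.6 CPM in HE1 and at most 2.84 elsewhere, and Gm36933 was at 2.01 and 13.1 and at most 1.12 elsewhere.

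Ratios of HE1 to the next stage reached 10 in 8 members, and the values that follow are the 8 highest among members with an HE1 mean of at least 2 CPM, which 22 members missed. Gm44716, in the basement membrane collagen gene Col4a1, had a ratio of 14.8 from 1.97 and 12.6 CPM in HE1 against 0.482 and 0.499 in HB. Gm45512, near Pdlim3, which encodes an actinin-associated LIM protein of muscle, had a ratio of 14.0 from 2.49 and 23.9 CPM against 1.24 and 0.638 in HB. The pseudogene Gm7498, in the membrane repair gene Dysf, had a ratio of 13.0, and the lincRNA 5033428I22Rik, 7485 bases from Hand2, one of 11.8. Gm36933, Gm16252 (antisense to Tmem108), Gm43795 (in Apbb2) and Gm37633 (in Hecw2) followed at 10.2, 10.1, 8.97 and 8.92. The rule held on HE1 replicate 1 alone for Gm44716, Gm7498, 5033428I22Rik, Gm16252 and Gm37633, and not for the others.

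The 3 members with the largest ratio between the HE1 libraries were Gm49774, antisense to the chromatin protein gene Hmga1, at 2.53 and 32.1 CPM (12.7 times), Gm45512 (9.59 times) and AC122252.2, near the phosphatase gene Dusp1, at 1.20 and 10.5 CPM (8.75 times). Gm49774 was at 5.68 and 3.47 CPM in HB and 2.99 and 4.42 in ES, above HE1 replicate 1. Pdlim3 also differed between the HE1 libraries, at 117 and 413 CPM. Dusp1 did not, at 71.5 and 70.9. Gm10840, the protein-coding member, which overlaps Limd2 on the opposite strand, was at 3.97 and 7.99 CPM in HE1, 1.45 and 1.28 in HB and 2.36 and 1.34 in HE2. Gm38042, in the homeobox gene Zfhx3, stood at 4.98 and 22.9 CPM in HE1 and 2.31 and 5.14 in HP. The misc RNA Gm24530, in the transporter gene Slc22a23, stood at 1.44 and 3.29 CPM in HE1 and was at 0 in ES replicate 1.

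Steps of differentiation that leave out HE1 were tested on the members, since the rule sets none of the other stages against each other. It does cap the mean of each at a fraction of the HE1 mean, so genes that peak in another stage are missing from the members. All tested genes include such genes, so comparing their shares of calls with those of the members is not free of this choice. Counts were compared with edgeR's quasi-likelihood test over all 22596 tested genes, which include all 169 members, 10 of them only through their HE1 counts, and calls needed a Benjamini-Hochberg adjusted p under 0.05 together with a 2-fold change or more. From ES to HB, 43 members (25.4%) rose and 1 fell, and the 43 belong to 34 of the 136 partner genes. Over all tested genes 11.5% were called higher in HB and 17.3% lower, and the median log2 fold change was 0.92 for the members and 0 for all tested genes. The partner genes themselves were called higher in 33.1% and lower in 8.82%, and the hosts of intronic members in 34.1% and 7.69%, with medians of 0.42 and 0.48. Leaving out ES replicate 1 or HB replicate 1 left 17 members called higher and leaving out ES replicate 2 left 21, while without HE1 replicate 2 there were 50; of the 50 members that meet the rule with HE1 replicate 1 alone, 15 were called higher. With the filter on low counts applied to the 8 libraries outside HE1, 159 members were tested, of which 40 rose and 1 fell, against 11.8% and 17.8% of the genes tested in that way. The fall, in Gm47302, was lost without ES replicate 2, HB replicate 1 or HB replicate 2 (adjusted p up to 0.0993), and without HE1 replicate 2 there were 2 falls.

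The called members with the largest fitted fold changes from ES to HB were at or near 0 in ES, where a fitted value depends on the prior count, so their order is not given and other members may have changed as much. Gm37082 in Fli1 rose from 0 counts in both ES libraries to 100 and 65 counts in HB, at least 80.5-fold higher against a floor of 3 counts over the ES libraries (adjusted p = 0.000236). AC109261.4, in the receptor phosphatase gene Ptprm, rose at least 12.7-fold (adjusted p = 0.00466), D330037F02Rik at least 10.7-fold (adjusted p = 0.0206) and Gm22060 in Fli1 at least 6.34-fold (adjusted p = 0.00744). The lincRNA 5033428I22Rik near Hand2, a factor of heart and mesoderm, had 2 counts in ES and 98 in HB, a ratio of 71.7 with a 95% exact counting interval from 19.3 to 600.2 (adjusted p = 0.00312). Over the alternatives the highest adjusted p was 0.00202 for Gm37082, 0.0314 for AC109261.4, 0.0324 for 5033428I22Rik, 0.103 for D330037F02Rik and 0.0544 for Gm22060. Gm37587 at Sox17 had 0 counts in both ES libraries and 8 in each HB library; it is among the 43, entered the test only through its HE1 counts and is not among the 40 found with the filter on the other libraries.

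Members with higher counts moved in the same step. Mir675 rose by a log2 fold change of 3.91 (SE 0.28, adjusted p = 3.87e-06), Airn by 3.94 (SE 0.57, adjusted p = 0.000355), Mir335 by 2.30 (SE 0.50, adjusted p = 0.00431) and C130089K02Rik by 3.07 (SE 0.63, adjusted p = 0.00299). All 6 members in Maml3 were called higher, and Maml3 itself went from 1.79 and 2.74 CPM in ES to 34.3 and 34.0 in HB. Gm47302, a predicted miRNA in the exon sequence of the collagen gene Col3a1, was the member that fell, with 5 counts in each ES library and 0 in both HB libraries (adjusted p = 0.0236). Of the leading members, Gm37352 had a log2 fold change of -0.16 (SE 0.52, adjusted p = 0.845) and Gm14005 one of -1.09 (SE 0.43, adjusted p = 0.0666).

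From HB to HE2, 14 members rose and 0 fell by edgeR's test, against 9.76% called higher and 11% called lower over all tested genes. The share of members that rose, 8.28%, was near the background. With the filter on the 8 libraries outside HE1, 13 of 159 members (8.18%) rose and 0 fell. Of the genes tested in that way, 9.92% rose and 11.3% fell. With the main filter, 25% of the partner genes were called higher and 5.15% lower. For the hosts of intronic members the shares were 26.4% and 3.30%. At an unadjusted p under 0.05, 32 members (18.9%) were higher and 1 (0.592%) was lower, against 20.3% and 19.1% of all tested genes; limma and DESeq2 each called 0 lower. Gm14005, a lincRNA beside the apoptosis gene Bcl2l11, was at 1.24 and 1.53 CPM in HB and 16.6 and 10.1 in HE2, a log2 fold change of 3.31 (SE 0.44, adjusted p = 0.000283), and Mir675 rose by 1.53 (SE 0.24, adjusted p = 0.000925). Gm19514, in the metalloprotease gene Adam12, rose by 3.43 (SE 0.93, adjusted p = 0.0182) and Gm43426 in Slit2 by 3.41 (SE 0.81, adjusted p = 0.00927). Six3os1, antisense to the homeobox gene Six3, rose by 4.47 (SE 0.91, adjusted p = 0.00407). Gm47302 rose from 0 counts in HB, at least 8.87-fold (adjusted p = 0.00325), and Serpina3h, a transcribed pseudogene of the serpin family whose reads may be split with its close copies, went from 2 counts in HB to 41 in HE2, a ratio of 20.2 with a 95% exact counting interval from 5.25 to 172.5 (adjusted p = 0.0103). The calls on Gm19514, Gm43426 and Serpina3h were lost when single libraries of HB or HE2 were left out, with adjusted p up to 0.132, 0.0712 and 0.0776, and that on Gm19514 also with limma (0.051). The 14 calls became 9 without HB replicate 1, 4 without HB replicate 2, 5 without HE2 replicate 1 and 22 without HE2 replicate 2, and 15 without HE1 replicate 2.

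From HE2 to HP, edgeR called 0 members in either direction, and it called 0% of all tested genes. At an unadjusted p under 0.05, 0 members were higher and 9 (5.33%) lower in HP, against 2.97% and 4.93% of all tested genes. limma and DESeq2 each called 0 members higher and 1 lower, and leaving out HE1 replicate 2 or HE2 replicate 2 gave 1 lower. Mir675, at 177 and 122 CPM in HE2 and 52.3 and 68.0 in HP, had a log2 fold change of -1.38 (SE 0.24, adjusted p = 0.081).

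The partner genes were also compared around HE1. These comparisons are not independent of the choice of members: member and partner come from the same libraries, 115 members lie in an intron of their partner and can share its unspliced transcript, and the 10 with shared exon bases have fragments counted on both. Of the 136 partners, edgeR's test called 66 as higher and 2 as lower in HE1 when set against HB, against 13.5% higher and 9.48% lower among the 15566 tested genes of the matrix. Partner genes were also more strongly expressed than these, with a median of 69.1 against 22.2 CPM over all libraries. The median log2 fold change was 1.01 for the partners and -0.02 for the tested genes of the matrix. Without HE1 replicate 2 the count was 67 higher and 2 lower, without HE1 replicate 1 it was 56 and 1, and without HB replicate 2 it was 57 and 1. Without the partners that share exon bases with a member, 58 of 127 were called higher, and 31 of the 43 partners of members that meet the rule with HE1 replicate 1 alone were called higher.

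Among the named partners, Slit2 went from 13.2 and 9.18 CPM in HB to 156 and 237 in HE1 (log2 fold change 4.09, SE 0.44, adjusted p = 0.000125), Hecw2, a ubiquitin ligase, from 7.16 and 5.41 to 173 and 182 (4.79, SE 0.62, adjusted p = 0.000359) and Ptprm from 27.5 and 22.2 to 214 and 192 (3.01, SE 0.47, adjusted p = 0.00102). Sox17 rose by 2.68 (SE 0.63, adjusted p = 0.0092), Itpkb by 2.46 (SE 0.30, adjusted p = 0.000232), Col4a1 by 2.13 (SE 0.41, adjusted p = 0.00357), Egfl7 by 2.01 (SE 0.33, adjusted p = 0.00145), Fli1 by 1.45 (SE 0.22, adjusted p = 0.000966) and Maml3 by 1.25 (SE 0.18, adjusted p = 0.000548). The call on Sox17 was lost without HB replicate 1 or HB replicate 2 (adjusted p up to 0.081), and that on Fli1 without HE1 replicate 1, where its log2 fold change was 0.99. Bcl2l11 and Six3 were called too, and each lost the call without HB replicate 2 (adjusted p = 0.109 and 0.148), Bcl2l11 also without HE1 replicate 1 and Six3 also without HB replicate 1. Efnb2 (0.11, SE 0.36, adjusted p = 0.846), Zswim4 (-0.08, SE 0.16, adjusted p = 0.722) and Unc5b (0.87, SE 0.41, adjusted p = 0.126) did not pass the test. The 2 partners that fell were Mrpl23, 36317 bases from Mir675, whose fall was under 2-fold with total counts and without HB replicate 2 or HE1 replicate 1, and Mas1, which was at 0.040 and 0 CPM in HE1.

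**Figure D5:**
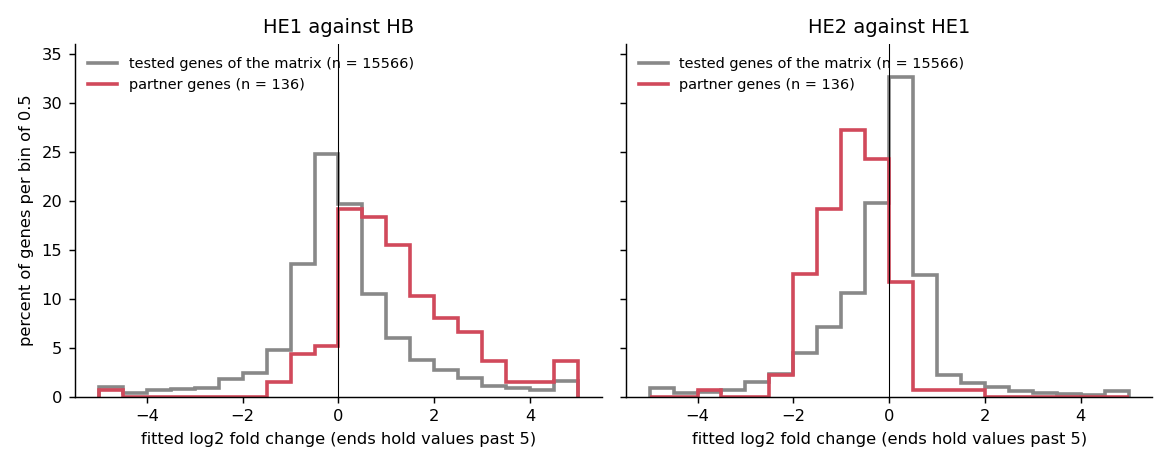
Distribution of fitted log2 fold changes of the 136 partner genes and of the 15566 tested genes of the matrix, from HB to HE1 (left) and from HE1 to HE2 (right), as percent of genes per bin. The partners lie to the right in the first comparison (median 1.01) and to the left in the second (median -0.73).

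From HE1 to HE2, 34 partners were called lower and 0 higher by edgeR's test, against 6.18% lower and 4.32% higher among the tested genes of the matrix, with median log2 fold changes of -0.73 and 0.02. At an unadjusted p under 0.05, 86 partners (63.2%) were lower and 3 (2.21%) higher, against 20.3% and 20.1% of the tested genes of the matrix; limma called 0 higher and DESeq2 1. The count of falls was 9 without HE1 replicate 2, 22 without HE1 replicate 1, 67 without HE2 replicate 1 and 6 without HE2 replicate 2, so it rests on which libraries are kept. Efnb2 fell by 1.72 (SE 0.37, adjusted p = 0.0197), Sox17 by 2.14 (SE 0.61, adjusted p = 0.0458), Unc5b by 1.64 (SE 0.42, adjusted p = 0.0331), Egfl7 by 1.44 (SE 0.33, adjusted p = 0.0231), Hand2 by 1.52 (SE 0.26, adjusted p = 0.00867), Igf2r by 1.16 (SE 0.20, adjusted p = 0.00971) and Itpkb by 1.14 (SE 0.28, adjusted p = 0.0317). The highest adjusted p over the alternatives lay between 0.0661 for Hand2 and 0.267 for Sox17 among these genes. Fli1 (0.05, SE 0.22, adjusted p = 0.891), Maml3 (-0.44, SE 0.17, adjusted p = 0.1), Slit2 (-1.14, SE 0.39, adjusted p = 0.0733) and Col4a1 (-1.13, SE 0.40, adjusted p = 0.081) did not pass. The comparisons of HE1 with HB and with HE2 share the HE1 libraries, so their results are not independent.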

How the data were processed

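Nuclear RNA from 10 libraries of HM-1 cells, 2 for each of 5 stages, was depleted of rRNA and sequenced with a stranded kit. According to the submitters' processing notes, the methods and the file headers, the authors trimmed reads with Trimmomatic, aligned them to mm10 with HISAT2 2.2.1 and counted fragments with featureCounts 2.0.1 on the exons of Ensembl release 102, in the reverse-stranded mode and on every gene a fragment overlapped. The deposited counts are not normalized. The deposited matrix holds the authors' expression score for each stage, of which only the gene identifiers were used here.

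The members and lists were chosen with earlier results of these data known. filterByExpr left 22596 genes for testing, library sizes were scaled with TMM, and stage was fitted to all 10 libraries with edgeR 4.0.16 in R 4.3.3. Alternatives were limma-voom (3.58.1), DESeq2 (1.42.0), total counts, no filter, a filter on the 8 libraries outside HE1, only the 4 libraries compared, a term for the replicate number, leaving out each library, and other thresholds of the rule. Tested on simulated data in which 200 genes differed between ES and HB by a log2 fold change of 2, edgeR recovered 90% with 15 unchanged genes called. limma recovered 89% with 17 and DESeq2 82.5% with 21. The simulation gave every gene the same relative spread and put no shift between the replicates of a stage, unlike the members. The shares recovered are therefore no measure of the power of the tests on the members. Named were the 12 members of highest HE1 mean, the 8 of highest ratio to the next stage at 2 CPM or more, protein-coding members, the 6 leading small RNAs, members in endothelial genes, the 3 with the largest ratio between HE1 libraries, the 3 on either side of the threshold, and up to 6 called members per test and direction. Biotypes, GC content and coordinates came from GENCODE M21 (GRCm38) and the count tables, and miRNA sequences from RefSeq. Python 3.11.15 with pandas 2.3.3, scipy 1.17.1 and matplotlib 3.10.9 was used for lists and figures.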

Additional observations from a re-analysis of the deposited data

How the results depend on the processing

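The number of members depends on the rule and on HE1 replicate 2. It was 371 with a 2-fold and 54 with a 5-fold threshold, 86 with an HE1 floor of 2 CPM, and between 63 and 679 when either HE1 library was left out. CPM over TMM library sizes gave 146 genes, 144 of them members. Of the counts of members called, rises from ES to HB ranged from 17 to 50 and falls from 0 to 2 with a library left out, with 15 and 0 among the members that meet the rule with HE1 replicate 1 alone (chosen after seeing the data, as were leaving out HE1 replicate 2 where HE1 is not compared and the filter on the 8 libraries outside HE1). Falls numbered 3 with DESeq2, 5 without a filter and 6 with only the 4 libraries compared. From HB to HE2, rises ranged from 4 to 22 and falls from 0 to 1 with a library left out, without a filter there were 34 rises and 4 falls, with only the 4 libraries there were 2 falls, and 6 rises came from members that meet the rule with HE1 replicate 1 alone. From HE2 to HP, 1 member was lower with limma, DESeq2 and only the 4 libraries, 3 without a filter, and 0 to 1 with a library left out. From HB to HE1, partners that rose ranged from 56 to 67 and those that fell from 1 to 2 with a library left out, 1 fell with total counts, and 31 rose and 1 fell among the 43 partners of members that meet the rule with HE1 replicate 1 alone. Partners lower in HE2 than in HE1 ranged from 6 to 67 with a library left out, and 20 of 43 were lower among partners of those members; higher in HE2 were 1 with DESeq2, 1 without a filter and 2 with the nearest gene by annotated start as partner. The cause of these shifts was not tested. Among 49 tests of named genes, none turned in direction, 23 were called under each of the alternatives run, and 57 of the 68 lost calls came from leaving out a library. Stages with 1 library left are assumed to vary like the others.

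The labels do not say whether same-numbered libraries of different stages belong together. The correlation of deviations from the stage means between same-numbered libraries of 2 stages ranged from -0.32 to 0.21. These values cannot decide it, since differences between single libraries can hide a shared culture. With the replicate block, 41 members rose and 1 fell from ES to HB, 12 rose from HB to HE2, 0 were called from HE2 to HP, 66 partners rose and 2 fell from HB to HE1, and 29 fell and 1 rose from HE1 to HE2. With counts under 10 in ES for many members, small differences were not detectable at this depth.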
